A study of Oryzias melastigma with 12 samples.

Results

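The 100 array probes described here were chosen because they lay apart from solvent control at 0.2 nM hexabromocyclododecane (HBCD) and back near control at 20 nM. They were taken from 26429 custom probes for the marine medaka, of which 10448 were well above background on all 12 arrays and could be chosen. A probe was kept when its mean at 20 nM lay within 0.2 of the control mean in the authors' deposited log2 table and when its 3 arrays at 0.2 nM lay all above or all below the 3 controls. Of the 1952 probes that met both conditions (1027 above, 925 below), the 100 with the largest absolute difference between 0.2 nM and control were taken. The members were thus chosen by their measured values in the control, 0.2 nM and 20 nM arrays. They divide into 17 probes above control, called rising probes below, and 83 probes below control, called falling probes. Both names give the direction that the choice fixed, not the outcome of a test.

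Larvae of the marine medaka (Oryzias melastigma), hatched no more than 24 hours before, spent 7 days in seawater with HBCD at 0.2, 2 or 20 nM, or with none. Dimethyl sulfoxide, the solvent, was present at 1 to 30000 by volume and was the only addition in the controls. Every concentration had 3 dishes with 100 larvae each, and each RNA sample came from 30 pooled whole larvae, so 1 array stands for 1 pool and there were 3 arrays per concentration. The labels used here do not tie each pool to a dish of its own, so p-values measure only the spread between these samples, which may be partly technical.

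HBCD is a brominated flame retardant that was used in polystyrene foam and textiles, and it is persistent and accumulates in animals. A response that is present at a low concentration and absent at a higher one is called non-monotonic, a form of dose response often discussed for compounds that act on hormone signalling. A whole-larva sample holds every tissue of the animal, so fewer cells of a type and less RNA per cell cannot be told apart in these values. The files name probes by the number of the custom design alone, and 0 probes could be joined to a gene, so probes are described by number and no gene, pathway or tissue marker is named. Each probe number below carries the ending _PI414333748 in the files.

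The arrays lay on 3 slides, and the concentrations were not balanced over them. No slide held both control and 20 nM arrays, so a difference or likeness between these groups cannot be told apart from slide. Slide 1 held the 3 controls and replicate 3 at 0.2 nM. Slide 2 held replicates 1 and 2 at 0.2 nM with replicates 2 and 3 at 2 nM. A difference of replicates 1 and 2 at 0.2 nM from control therefore cannot be told apart from slide either. Slide 3 held replicate 1 at 2 nM with all 3 arrays at 20 nM, and each slide had a scan of its own. Signal strength, taken as the 75th percentile of an array's processed intensity, lay between 293 and 478 units, and the 0.2 nM arrays on slide 2 had both highest values (443 and 478). Between 43.7% and 48.5% of the probes were well above background on an array, and 0 spots were saturated. The 2 nM arrays entered the choice of the 100 probes through the background condition alone, so the tests below rest on them. They share slides 2 and 3 with 0.2 and 20 nM arrays that chose the probes. Whatever the arrays of a slide shared thus entered the choice too, and the tests are not wholly independent of it.

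At 0.2 nM the rising probes stood above control by a median of 0.64 in deposited log2 units, with a range of 0.58 to 1.55. The falling probes stood below it by a median of -0.695 (-1.14 to -0.58), and the median over the 10448 eligible probes was 0.02. At 20 nM the medians were 0.02 for the rising and 0.07 for the falling probes, against -0.04 over the eligible probes. These differences chose the probes and are given as a description. On single arrays, the falling probes had medians of -0.876, -0.892 and -0.274 for replicates 1 to 3 at 0.2 nM and of 0.109, 0.001 and 0.098 at 20 nM. The rising probes had medians of 0.728, 0.751 and 0.481 at 0.2 nM and of -0.168, 0.167 and -0.049 at 20 nM. Replicate 3 at 0.2 nM was thus nearer to control than replicates 1 and 2 in both sets. Of all eligible probes, 16.1% had their 0.2 nM arrays above the controls and 13.4% had them below.

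The limits of the choice fell among close values. The last probe inside, CUST_22809, differed from control by 0.576 at 0.2 nM, and the first outside, CUST_11656, by 0.574. At the 20 nM limit, CUST_15639 was inside with a difference of 0.199 and CUST_12195 was outside with 0.200. In all, 326 eligible probes had 0.2 nM arrays off the controls by at least as much as the last probe inside, 87 above and 239 below. Of these, 226 were off by at least the limit at 20 nM, 70 of the 87 above and 156 of the 239 below.

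CUST_20390 had the largest difference of the 100 probes at 0.2 nM, 1.55 above control. Its deposited log2 values were 7.60, 7.44 and 7.72 in the controls, 9.13, 9.54 and 8.73 at 0.2 nM and 7.01, 7.93 and 8.08 at 20 nM (replicates 1 to 3 in each). At 2 nM it read 7.35 on slide 3 but 8.29 and 12.58 on slide 2, so the 2 replicates of that slide were further apart than any other group of this probe. Its single spot per array gave the 12.58, and that value was not repeated on any other array.

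CUST_23851, the rising probe with the second largest difference (1.07), had values of 6.29, 5.93 and 5.91 in the controls. At 0.2 nM it read 6.77 and 6.80 on slide 2 and 7.77 on slide 1, and at 20 nM 5.87, 6.08 and 5.87. At 2 nM it read 5.84 on slide 3 and 6.44 and 6.33 on slide 2. All 3 arrays at 0.2 nM were above the controls, with the highest value on the controls' own slide.

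CUST_21750 had the largest difference among the falling probes, -1.14. It read 7.70, 7.58 and 8.04 in the controls, 6.48, 6.37 and 7.06 at 0.2 nM and 8.17, 7.68 and 7.48 at 20 nM. At 2 nM it read 8.04 on slide 3 and 6.45 and 6.90 on slide 2. The 2 nM array on slide 3 was thus level with the highest control, and the pair on slide 2 lay among the 0.2 nM values.

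CUST_10903 followed with -1.13, and its controls were far apart, at 8.03, 6.65 and 6.59. It read 5.97, 5.64 and 6.26 at 0.2 nM and 7.15, 6.90 and 6.93 at 20 nM. At 2 nM it read 7.17 on slide 3 and 6.20 and 6.09 on slide 2. Control replicate 1 alone lay above every other array of this probe.

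Replicate 3 at 0.2 nM shared slide 1 with the controls, and there both sets of probes were nearer to control. For the falling probes its median difference from control was -0.27 in deposited log2 units (-1.51 to -0.02), against -0.89 for the mean of replicates 1 and 2 on slide 2. For the rising probes it was 0.48 (0.08 to 1.73), against 0.74. Over the eligible probes the medians were -0.002 for replicate 3 and 0.04 for replicates 1 and 2.

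Set against the mean of replicates 1 and 2, the shift of replicate 3 was 30.2% at the median of the falling probes and 67.8% at the median of the rising probes. It was under 50% in 61 of the 83 falling and in 3 of the 17 rising probes, and over 100% in 2 falling and 4 rising probes. Replicate 3 had the smallest shift of the 3 arrays in 79 of 83 falling and 11 of 17 rising probes. The gap between replicate 3 and the nearest control was wider than the range of the controls in 41 of the 83 falling and 15 of the 17 rising probes. These are the arrays that the choice was made on, and no test is given for them. No share over the eligible probes stands beside these counts, so nothing particular to the 100 probes is read from them. The 1010 other probes above control that met both conditions also had a smaller median difference in replicate 3. It was 0.135 there, against 0.258 for replicates 1 and 2, in deposited log2 units.

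The extremes of this share lay far apart. For CUST_16733 it was 1.72%, with controls at 8.84, 8.84 and 8.85, replicates 1 and 2 at 7.83 and 7.69 and replicate 3 at 8.82. For CUST_7113 it was 526%, with controls at 9.44, 9.50 and 9.25, replicates 1 and 2 at 9.20 and 9.01 and replicate 3 at 7.88. In the former the shift was carried by slide 2, and in the latter mostly by the array on slide 1.

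Among the rising probes the smallest share belonged to CUST_20694 (9.31%), with controls at 7.58, 7.61 and 7.63 and 0.2 nM values of 8.47, 8.48 and 7.69. At 20 nM this probe read 8.29, 6.36 and 8.54, so its mean near control there combined 2 arrays above the controls with 1 below. The largest share belonged to CUST_12709 (425%), with controls at 5.82, 5.82 and 6.09 and 0.2 nM values of 6.16, 6.42 and 7.52. Its 20 nM values of 5.96, 5.92 and 5.92 lay within the range of the controls.

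The 2 nM arrays asked whether probes chosen at 0.2 nM also differed from control at the next concentration. From here on, values are log2 of the processed intensity over the array's 75th percentile. The falling probes were below control at 2 nM by a median of -0.42, and 79 of 83 had a negative difference. The rising probes were above control by a median of 0.195, with 15 of 17 positive, and the median over eligible probes was 0.01. The controls also entered the choice of the probes, and the 2 nM arrays share slides with other arrays that did. The comparison is therefore not wholly independent of the choice.

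In limma's fit over all 12 arrays, 1 falling probe and no rising probe passed an adjusted p of 0.05 for 2 nM against control, while 2.73% of the 11923 tested probes were called (2.42% higher, 0.302% lower). At an unadjusted limma p under 0.05, 16 of 83 falling probes were lower (6.53% of all tested) and 2 of 17 rising probes were higher (12.3% of all tested). The count of calls moved with single arrays and settings. Without the 2 nM array on slide 3 it was 38, all falling and all lower, while 3.6% of all tested probes were then called lower and 3.0% higher. Without control replicate 2 it was 0 (0.302% of all tested probes). With array weights it was 45 (2 rising, 43 falling), against 7.67% of all tested probes called higher and 6.26% called lower.

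The probe called was CUST_23524. Its levels were -1.69, -1.50 and -1.69 in the controls and -2.26, -2.59 and -2.32 at 2 nM, with no overlap on either slide. The difference was -0.76 (SE 0.12, limma adjusted p = 0.013). At 0.2 nM it read -2.06, -2.18 and -2.27, with replicate 3 on slide 1 the furthest from control, and at 20 nM -1.25, -1.61 and -1.39. The call was lost in limma with slide as a fixed block (difference -0.976, adjusted p = 0.295), with slide as a random block (-0.818, adjusted p = 0.0753) and without control replicate 2 (-0.704, adjusted p = 0.0658). It was also lost in limma without a filter on dim probes (-0.765, adjusted p = 0.0537), with normexp after replaced backgrounds (-0.407, adjusted p = 0.0939) and with normexp, another background correction, which turned the sign (0.261, adjusted p = 0.586).

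CUST_887 had the next smallest p among the falling probes. It read -0.53, -0.89 and -0.91 in the controls, and at 2 nM -0.99 on slide 3 and -2.22 and -2.04 on slide 2. All 3 arrays lay below the controls, the one on slide 3 only just, and the difference was -0.97 (SE 0.30, limma adjusted p = 0.12). Without the 2 nM array on slide 3 it was -1.35 (limma adjusted p = 0.0143).

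For the rising probes the smallest p belonged to CUST_18882, which read -2.75, -2.91 and -2.72 in the controls and -2.27 on slide 3 and -1.63 and -2.46 on slide 2 at 2 nM. Its 2 nM arrays were all above the controls, and the difference was 0.67 (SE 0.22, limma adjusted p = 0.145). CUST_22423 read -1.12, -1.03 and -1.05 in the controls and -0.92, -0.27 and -0.44 at 2 nM. Those arrays were also above the controls, with a difference of 0.52 (SE 0.21, limma adjusted p = 0.216). Neither passed the threshold.

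Split by slide, the 2 nM arrays gave different values for the same probes. On slide 2 the falling probes were below control by a median of -0.72 at 2 nM, and in 77 of 83 both arrays lay below all controls, against 22.3% of the eligible probes. On slide 3 the single 2 nM array stood above control by a median of 0.196 over the falling probes. It lay above all controls in 53 of the 83 (34.5% of the eligible probes) and below them in 11 (41.8%). The single arrays on slide 2 were alike, with medians of -0.706 each in deposited log2 units, against 0.134 for the array on slide 3. The eligible medians were 0.05 on slide 2 and -0.025 on slide 3.

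The rising probes had a median of 0.34 above control at 2 nM on slide 2 and of -0.02 on slide 3. Both arrays of slide 2 lay above all controls in 12 of 17 rising probes (31.1% of the eligible probes). The array on slide 3 lay above the controls in 6 of 17, near the 34.5% of the eligible probes, and below them in 4 (41.8%). All 3 arrays at 2 nM lay above the controls in 4 of 17 rising probes (16.5% of the eligible) and below them in 11 of 83 falling probes (10.8%).

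With slide as a fixed block, the median difference between 2 nM and control was -0.14 over the falling probes, with 57 of 83 negative. Over the rising probes it was 0.22, with 10 of 17 positive. The eligible median was 0.02, with 5581 of 10448 positive. In that fit 0 of the 100 passed in limma, where 0.00839% of all tested probes did. With slide as a random block the medians were -0.23 over the falling, 0.30 over the rising and 0.003 over the eligible probes. There 0 of the 100 passed in limma, where 0.201% of all tested probes did. No slide held both control and 2 nM arrays, so a value within 1 slide cannot be had, and the fixed block ties them through the 0.2 nM arrays that chose the probes. The blocked medians therefore rest partly on the values of the choice.

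Within 2 nM, the array on slide 3 was set directly against the pair on slide 2, at the same concentration. The falling probes were higher on slide 3 by a median of 0.92, and all 83 had a positive difference (0.08 to 1.64), against 3890 of 10447 eligible probes and an eligible median of -0.10. In 82 of the 83 both arrays of slide 2 lay below the array of slide 3, which held for 28.4% of the eligible probes. The rising probes were lower on slide 3 by a median of -0.32, with 15 of 17 negative. With normexp this median was 0.371, and with normexp after replaced backgrounds it was -0.232. In 11 of 17 both arrays of slide 2 lay above that of slide 3, against 51.1% of the eligible probes.

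In limma's fit of the combinations of group and slide, 52 of the 83 falling probes passed as higher on slide 3, and 2 with the fit on the 3 arrays at 2 nM alone. No rising probe passed in either. Over all tested probes, 8.03% of 11922 were called (6.89% higher, 1.13% lower) in the fit of all arrays and 1.31% (higher) and 0.0168% (lower) in the fit of 2 nM alone. At an unadjusted limma p under 0.05, 68 falling probes were higher (12.8% of all tested) and 4 rising probes were lower (11.8%). The spread in the fit of all arrays comes partly from those that chose the probes, and a single array, assumed to vary like the others, stands against a pair. Falling probes were also called with normexp after replaced backgrounds, at a median difference of 0.509. With the replicate number as a block limma called 32 falling probes (4.55% of all tested called higher), and with normexp it called 0 (0.0% of all tested).

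CUST_25250 had the smallest p among the falling probes. At 2 nM it read 5.09 on slide 3 and 3.25 and 3.64 on slide 2. The controls read 4.77, 4.57 and 4.72 and the 20 nM arrays 4.85, 4.72 and 4.81, so slide 3 stood above and slide 2 far below every control. The difference between slides was 1.64 (SE 0.16, limma adjusted p = 0.00106), and with the 2 nM arrays alone the limma adjusted p was 0.0574. Its 0.2 nM values were 3.50 and 3.49 on slide 2 and 4.37 on slide 1.

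CUST_21152 came next, with 1.33 on slide 3 and 0.17 and -0.02 on slide 2 at 2 nM. Its controls read 1.00, 1.02 and 0.93, which lay between the slides. The difference was 1.26 (SE 0.13, limma adjusted p = 0.00107; 0.0601 with the 2 nM arrays alone). At 0.2 nM it read 0.14 and 0.21 on slide 2 and 0.81 on slide 1, and at 20 nM 1.19, 1.05 and 1.26.

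Of the rising probes, CUST_8250 had the smallest p, with -3.11 on slide 3 and -2.61 and -2.05 on slide 2 at 2 nM. Its controls read -2.38, -2.52 and -2.70, within the span of the 2 nM arrays. The difference was -0.78 (SE 0.26, limma adjusted p = 0.111). CUST_22809 read 0.96 on slide 3 and 1.23 and 1.69 on slide 2, with a difference of -0.49 (SE 0.18, limma adjusted p = 0.139).

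The steps in concentration within a slide and the differences between slides are given as a description, and their order is not compared. All but the difference within 2 nM include arrays that chose the probes, and that difference shares its slides with such arrays. For the falling probes on slide 1, from control to 0.2 nM, the median was -0.277. On slide 2, from 0.2 to 2 nM, it was 0.145, and on slide 3, from 2 to 20 nM, -0.13. Between slides it was -0.59 from slide 1 to slide 2 at 0.2 nM and 0.92 from slide 2 to slide 3 at 2 nM.

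For the rising probes the step on slide 1 was 0.49. On slide 2 it was -0.31 and on slide 3 0.04, and between slides the medians were 0.27 at 0.2 nM and -0.32 at 2 nM. Over the eligible probes the 5 medians ran from -0.10 to 0.04.

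Probes as far from control at 0.2 nM but not back at 20 nM were set beside the members. Over the 156 of them below control the difference within 2 nM was 1.23 at the median, with 154 positive, and their median difference from control was 0.37 at 20 nM and -0.85 at 2 nM on slide 2. Over the 70 above control the difference within 2 nM was -0.12, with medians above control of 0.86 on slide 2 at 2 nM, 0.77 on slide 3 at 2 nM and 0.75 at 20 nM. On slide 3 these probes thus lay above control, while the median of the 17 rising probes at 2 nM on that slide was -0.02. The 20 nM limit separated these probes from the members, and all 20 nM arrays lay on slide 3. The 20 nM medians therefore follow from the choice, and nothing is read from the contrast on slide 3.

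The remaining probes that met both conditions but had smaller differences at 0.2 nM were also set side by side. Over the 842 below control the difference between slides within 2 nM was 0.10 at the median, and over the 1010 above it was -0.28. When 2 nM took the place of 0.2 nM in the choice, on the deposited log2 values, 732 probes above (7.01% of the eligible) and 644 below control (6.16%) met the conditions. They included 3 of the 17 rising probes, above, and 13 of the 83 falling probes, below.

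The 100 probes were dimmer than the eligible probes in general. The median processed intensity at 2 nM was 125 units for the rising, 118 for the falling and 414 for the eligible probes. The dimmest 25% of the eligible probes held 9 of the 17 rising (52.9%) and 43 of the 83 falling probes (51.8%), and the brightest 25% held 0 and 5 (6.02%). The falling probes had the same sign between slides at every brightness. From the dimmest to the brightest 25%, the median difference within 2 nM was 0.987, 0.775, 0.815 and 0.943 over 43, 25, 10 and 5 probes, against eligible medians of -0.01 to -0.16.

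Repeated spots gave a reading of the error within an array. Of the 100 probes, 12 were printed 5 times: 2 rising (11.76%) and 10 falling (12.05%), against 19.53% of the eligible probes. The other 15 rising and 73 falling probes had 1 spot per array. In probes printed 5 times the median SD over spots was 0.116 for the rising and 0.13 for the falling ones. It was 0.08 for eligible probes printed 5 times. At 2 nM all spots of slide 2 lay below those of slide 3 in 7 of the 10 falling probes (12.9% of the 2041 eligible probes printed 5 times) and above them in 1 of the 2 rising probes (25.4%). Median SDs between the controls were 0.06 for the rising, 0.09 for the falling and 0.08 for the eligible probes. By position, 41 of 73 falling probes printed once (56.2%) lay in the upper part of the array, against 49.2% of the eligible ones, and 0 of the 100 had a neighbouring design number within the set.

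Spike-in controls, RNAs added to each sample in known amounts, gave a reading of the same array differences without larval RNA. Such controls can show a difference shared by probes in general, not a difference confined to some probes. Over the 5 of 10 spike-ins within the brightness range of the 100 probes, replicates 1 and 2 at 0.2 nM differed from control by a median of 0.03 in deposited log2 units (-0.004 to 0.12). The difference between slide 3 and slide 2 within 2 nM was 0.01 (-0.12 to 0.09). Within slide 2, the difference of 2 nM from 0.2 nM was -0.306 (-0.393 to -0.204), so the spike-ins were not level across that slide. Against control the spike-ins stood at -0.24 on slide 2 and -0.23 on slide 3 at 2 nM, and at -0.19 at 20 nM. The control means of these 5 were 6.53, 9.91, 10.84, 12.65 and 14.86 in deposited log2 units. The median control mean of the 100 probes was 7.35, so only the dimmest spike-in lay below it and most probes were poorly matched.

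At 0.2 nM itself, limma's fit called 0 of 11923 probes (0.0%), and so 0 of the 100. At an unadjusted limma p under 0.05, 15 of 17 rising probes were higher and 70 of 83 falling probes were lower, against 7.89% and 7.0% of all tested probes. These are the values that the choice used, and nothing is read from them. At 20 nM 2.95% of all tested probes were called by limma (0 of the 100), again on values that the choice used.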

How the data were processed

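Total RNA of 12 pools was measured on 1-colour Agilent arrays (Cy3). The authors deposited spot intensities, made with Agilent Feature Extraction 10.7.3.1 per the file headers (10.7 per the submitters' processing notes), with background subtracted within each array. They also deposited a table of log2 values. Its columns shared a median of 4.34 and a 75th percentile of 7.82 and had correlations of 0.999 or more with log2 intensities of the matching array, so its scale and direction are those of the arrays and no gene centring was seen. The sources used here do not name the program behind it. 0 columns of other samples were present.

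The deposited log2 table chose the 100 probes and describes 0.2 and 20 nM. For tests, the array's 75th percentile was subtracted from log2 processed intensities, after 507 to 729 spots per array marked as non-uniform or outliers were left out; repeated spots were averaged. Well above background means that the scanner software marked a share over 0.5 of a probe's spots so. The 11923 probes that met this on every array of 1 or more groups were tested with limma 3.58.1 in R 4.3.3, in a fit of the 4 groups and a fit of the 6 combinations of group and slide, with Benjamini-Hochberg adjustment over all of them. The precision is limited by 3 arrays per group. Python 3.11.15 with pandas 2.3.3 made the tables.

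The probes, lists and named items were chosen with earlier results of these data known. Probes were named as follows: the 2 largest rising and falling at 0.2 nM, those at the limits, the extremes of the replicate 3 share, and the 2 of each direction with the smallest limma p for each test at 2 nM. 0 gene lists were tested, since 0 probes joined the 28599 genes of the gene table, and no probe sequence was used here. Alternatives were the deposited log2 table, the 75th percentile over detected probes, quantile normalization, normexp, no filter, array weights, blocks and single arrays left out. Normexp (offset 50) was planned on the mean spot signal, which the spot values used here lacked. It was run on the median spot signal instead. Replicate numbers were not used to pair arrays in the main fits. Of 18 same-numbered pairs, 4 had deviations from the group means correlated over 0.1. Only 3 of the 18 pairs shared a slide, so this check cannot exclude pairing.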

Additional observations from a re-analysis of the deposited data

How the results depend on the processing

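In what follows, the cause of a change was not tested. Where no share over all tested probes is given here or above, nothing particular to the 100 probes is read from a count. The number of the 100 probes called for 2 nM against control (1) became 0 with normexp, with normexp after replaced backgrounds, without a filter on dim probes, and with slide as a fixed or random block. It became 45 with array weights, 2 with only control and 2 nM in the fit, and 0 to 38 without single arrays (0 without control replicate 2, 38 without 2 nM replicate 1). The number called between slides within 2 nM (52) became 0 with normexp, 2 with only the 2 nM arrays, 32 with the replicate number as a block (replicate block) and 43 to 57 without single arrays. Between slides, falling probes were also called with normexp after replaced backgrounds and without a filter on dim probes. The replicate block left the count for 2 nM against control at 1.

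The median difference between slides over the rising probes (-0.322) became -0.439 in the deposited table, -0.438 with quantile normalization, 0.371 with normexp, -0.232 with replaced backgrounds and -0.433 to -0.307 without single arrays. Over the falling probes (0.918) it became 0.711 with normexp, 0.509 with replaced backgrounds and 0.862 to 0.922 without single arrays. For 2 nM against control, the rising median (0.195) became 0.626, 0.101, 0.336 from slide 2 alone, -0.021 from slide 3 alone and 0.129 to 0.336 without single arrays; the falling median (-0.42) became 0.119, -0.252, -0.719, 0.196 and -0.719 to -0.256 in the same order.

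At 0.2 nM the rising median (0.641) became 0.53 with normexp, 0.482 with replaced backgrounds and 0.639 to 0.742 without single arrays, and the falling median (-0.695) became -0.163, -0.531 and -0.894 to -0.581. At 20 nM the rising median (0.024) became 0.099 on the 75th percentile scale and -0.048 to 0.025 without single arrays (-0.048 without replicate 2, -0.039 without replicate 3). The falling one (0.073) ran from 0.041 to 0.106 without single arrays. It became 0.023 with normexp and with replaced backgrounds, and 0.096 on the 75th percentile scale. Of the 100 probes, 17 were chosen again with normexp, 55 with replaced backgrounds, 53 and 66 with limits of 0.1 and 0.3, and 49 to 82 without single arrays (49 without 0.2 nM replicate 3). On the 75th percentile scale 81 were chosen again, and 92 with quantile normalization.

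With normexp CUST_23524 turned to 0.261 at 2 nM against control, and CUST_8250 to 0.658 between slides. On 0.2 nM replicate 1, 2 nM replicate 1 and 2 nM replicate 3, there were 6, 6 and 9 spots with a background over 200. With normexp the correlation of those arrays with the 75th percentile values was 0.932 to 0.946. With those backgrounds replaced it was 0.989 or more on the same arrays. This alternative was chosen after seeing the data, like the single-slide values and the fit of the 2 nM arrays alone. Whether those spots caused the changes seen with normexp was not tested. Of the alternatives for whole sets, 86 stayed within 1.5 times the count, or within the median SD between controls (0.062 for rising, 0.091 for falling probes) of the median; 42 moved further and 6 reversed.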
